A study of Mus musculus with 32 samples.

Results

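The Hedgehog pathway was followed here through 7 genes, chosen by symbol: the receptor gene Ptch1, the ligand-binding inhibitor gene Hhip, the signal transducer gene Smo, the GLI-binding inhibitor gene Sufu and the 3 GLI transcription factor genes Gli1, Gli2 and Gli3. All 7 were among the 26331 named genes of the deposited count tables, and all 7 passed the filter on low counts in every comparison. The study measured RNA by sequencing in mouse dorsal telencephalon at E12.5 and cortex at E15.5, and asked what loss and gain of Kat6b, a gene for a lysine acetyltransferase that acts on histones, do to gene expression there. On the inbred C57BL/6 background there were 5 labelled Kat6b knockout and 5 wild-type libraries at E15.5, and 3 of each at E12.5. On a mixed FVBxBALB/c background, used because Tg(Kat6b) mice did not survive on an inbred one, there were 4 Tg(Kat6b) and 4 wild-type libraries at each age. The labels name neither the part of Kat6b deleted in the knockout nor the promoter of the transgene. Background and sequencing batch coincide and cannot be told apart. The labels give litter and embryo numbers on C57BL/6 only, where each library is then a separate embryo, from 2 litters at E12.5 (replicates 1, and replicates 3 and 4) and 5 litters at E15.5, each with 1 embryo of either genotype. On FVBxBALB/c the p-values measure the spread between libraries, whose origin from separate embryos is not labelled.

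The libraries held 10383066 to 49508669 counts. Levels are given in CPM, the count scaled to the library's total after correction by edgeR's trimmed mean factor. Kat6b itself had 638, 588, 631 and 763 CPM in Tg(Kat6b) and 222, 187, 150.5 and 164 CPM in wild-type libraries at E15.5, 3.62-fold higher in Tg(Kat6b), and was 3.09-fold higher at E12.5 (edgeR adjusted p = 1.64e-06 and 1.03e-05). In the labelled knockout Kat6b had 192, 151 and 121 CPM at E12.5, against 195, 167 and 152 CPM in wild type. It had 153 to 191 CPM at E15.5, against 151 to 189.9 CPM. The count over the whole gene therefore does not check the knockout label, and these libraries are called labelled knockout throughout. All 10 dorsal telencephalon markers used, Emx1 among them, were present in all 32 libraries. Some libraries stood apart in markers of neighbouring tissue. C57BL/6 wild-type replicate 1 at E12.5 had 3.01 CPM of Nkx2-1, a ventral forebrain gene, where the other 13 E12.5 libraries had 73.1 to 147 CPM. Labelled knockout replicates 3 and 4 at E15.5 carried a summed 174 and 173 CPM of meningeal markers, against 19.7 to 29.4 CPM in the other 3 of their group. Labelled knockout replicate 5 at E15.5 is given the tissue dorsal telencephalon in its labels, and the 2 count columns of C57BL/6 replicates 5 at E15.5 carry an E12.5 name. On the first principal component both lay with the E15.5 libraries.

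Hedgehog proteins such as SHH bind PTCH1 at the cell surface and relieve the block it places on SMO. SMO then acts at the primary cilium to free GLI proteins from SUFU and to stop the cutting of GLI3, and in part GLI2, into repressors, so that full-length GLI2 and GLI3 can activate transcription. Gli1, Ptch1 and Hhip are themselves transcribed in response, and PTCH1 and HHIP bind the ligand and so restrain the signal. In the forebrain SHH comes from ventral sources and is known for ventral identity, whereas GLI3, largely as a repressor, is known for its need in dorsal telencephalon and cortical progenitors.

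The 3 GLI genes encode related zinc finger proteins, so the paired 66-base reads could in principle fall on sequence that they share. The longest exact run shared by any of their GENCODE M21 transcripts was 23 bases for Gli1 and Gli2, 14 for Gli1 and Gli3 and 25 for Gli2 and Gli3, and none shared a window of 66 bases. The window of 66 coding bases of Gli3 with the most matches to Gli1 and Gli2 together was chosen, with the windows of Gli1 and Gli2 that match it best. They are printed below 5′ to 3′ on the coding strand, from GRCm38 (mm10), and show that a read there spans several differences. The window was chosen for the 3 genes together, and a single pair may be more alike elsewhere. Capitals mark the 10 positions that are not alike in all 3 genes, and the other 56 are.
Gli1, chr10:127333714-127333779 on the minus strand, exon 11: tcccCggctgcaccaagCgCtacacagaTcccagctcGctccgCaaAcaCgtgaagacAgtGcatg
Gli2, chr1:118842113-118842178 on the minus strand, exon 12: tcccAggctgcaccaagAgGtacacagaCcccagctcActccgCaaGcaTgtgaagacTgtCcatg
Gli3, chr13:15720074-15720139 on the plus strand, exon 13: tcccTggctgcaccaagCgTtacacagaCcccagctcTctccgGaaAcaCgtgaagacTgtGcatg
Within this window Gli1 and Gli3 were identical at 60 of 66 bases (90.9%), Gli2 and Gli3 at 58 (87.9%) and Gli1 and Gli2 at 57 (86.4%). Reads of the 3 genes can therefore be separated by sequence, and their counts are treated as those of separate genes. The GLI binding sequence GACCACCCA, searched on both strands as GACCACCCA or TGGGTGGTC with no other motif, was in 0 of the 6 promoter windows that matched a member (all but Gli1), and in 83 of all 32851 windows (0.253%). Each window, from RefSeq on GRCm38.p6, ran 250 bases before to 50 bases after a gene's start.

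Per kilobase of exon, Smo was the highest of the 7 genes in all 8 groups and Hhip the lowest. In C57BL/6 wild type at E15.5 the mean level in RPKM (CPM divided by exon length in kilobases) was 20.02 ± 1.72 for Smo, 10.8 ± 0.442 for Sufu and 9.60 ± 1.48 for Gli3 (SD, n = 5). It was 8.15 ± 1.32 for Ptch1, 5.999 ± 0.544 for Gli2, 1.87 ± 0.280 for Gli1 and 0.300 ± 0.0741 for Hhip. At E12.5 the mean RPKM in the same background was 46.6 ± 5.73 for Smo and 27.3 ± 8.91 for Gli3, ahead of 13.5 ± 0.688 for Sufu, 13.2 ± 2.57 for Ptch1 and 10.3 ± 1.76 for Gli2 (SD, n = 3). Gli1 was at 4.50 ± 0.387 RPKM and Hhip at 0.509 ± 0.222 RPKM. Gli3 thus stood above Sufu at E12.5 in all 3 C57BL/6 wild-type libraries and below it in 4 of 5 at E15.5. In FVBxBALB/c wild type Gli3 stayed above Sufu at E15.5 in all 4 libraries. Their mean RPKM was 11.4 ± 1.54 for Gli3 and 8.74 ± 0.871 for Sufu (SD, n = 4).

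By group mean Gli3 made up most of the GLI RNA in every group, Gli2 came next and Gli1 was least. Of the summed RPKM of the 3 genes, Gli3 took 54.8 ± 2.67% in labelled knockout and 54.7 ± 2.51% in C57BL/6 wild type at E15.5 (SD, n = 5 each), and 53.3 ± 9.25% and 64.1 ± 4.83% at E12.5 (n = 3 each). In FVBxBALB/c it took 61.2 ± 3.36% in Tg(Kat6b) and 59.9 ± 2.36% in wild type at E15.5, and 67.2 ± 5.43% and 65.4 ± 5.55% at E12.5 (n = 4 each). The Gli2 share was larger at E15.5: 33.3, 31.8, 38.99, 35.5 and 33.2% in the C57BL/6 wild-type libraries, against 22.8, 25.97 and 25.4% at E12.5, with no overlap. In FVBxBALB/c wild type the Gli2 share was 31.1, 26.8, 31.7 and 32.1% at E15.5, against 26.01, 22.1, 23.5 and 23.04% at E12.5, again without overlap. The summed GLI level itself was 17.5 ± 2.07 RPKM at E15.5 and 42.1 ± 10.3 RPKM at E12.5 in C57BL/6 wild type, and 18.99 ± 1.98 and 41.9 ± 4.68 RPKM in FVBxBALB/c wild type. The widest spread of shares was in labelled knockout at E12.5, where Gli1 held 9.36, 21.6 and 27.3% in replicates 1, 3 and 4, against 7.57, 13.1 and 12.9% in wild type. In labelled knockout replicate 4 alone Gli1 stood above Gli2 (26.7%), and Gli3 held 46.0% there.

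**Figure D1:**
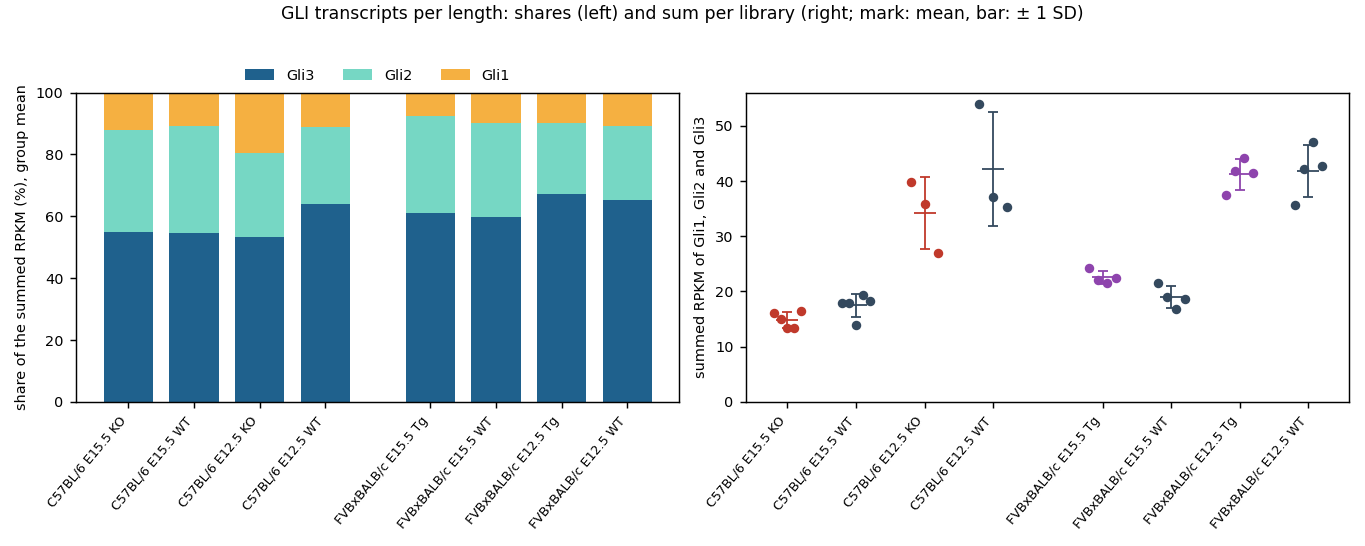
Share of Gli1, Gli2 and Gli3 in their summed RPKM as group means (left, stacked bars, percent) and the summed RPKM of each library (right, points, with the group mean and 1 SD). Gli3 holds 53.3 to 67.2% in all 8 groups, and the summed level is lower in each E15.5 group than in the E12.5 group of its genotype.

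Comparing E15.5 cortex with E12.5 dorsal telencephalon asks how the pathway genes differ between an early stage, rich in dividing progenitors, and one at which many neurons have formed. The tissue named in the sample titles changes with age in every library, so age and dissection cannot be told apart. All 7 genes were lower at E15.5. By edgeR's quasi-likelihood test, with p-values adjusted by Benjamini-Hochberg over all genes tested, 7 of 7 fell at a threshold of 0.05 in C57BL/6 wild type, where 28.2% of 16118 genes fell, and 7 of 7 in labelled knockout (27% of genes fell). In FVBxBALB/c wild type 6 of 7 fell (25.1% of 15556 genes) and in Tg(Kat6b) 6 of 7 (22.5%), with Sufu missing the threshold in both. Every E15.5 library lay below every E12.5 library for 6 of 7 genes in C57BL/6 wild type, 7 of 7 in labelled knockout and 5 of 7 in each FVBxBALB/c genotype. Such separation downwards was seen in 26.3%, 27.7%, 21.9% (wild type) and 22.3% (Tg) of all genes, in the same order. The median log2 fold change of the 7 was -0.76 in C57BL/6 wild type and -1.25 in FVBxBALB/c wild type, where the median of all genes tested was -0.02 and -0.03.

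**Figure D2:**
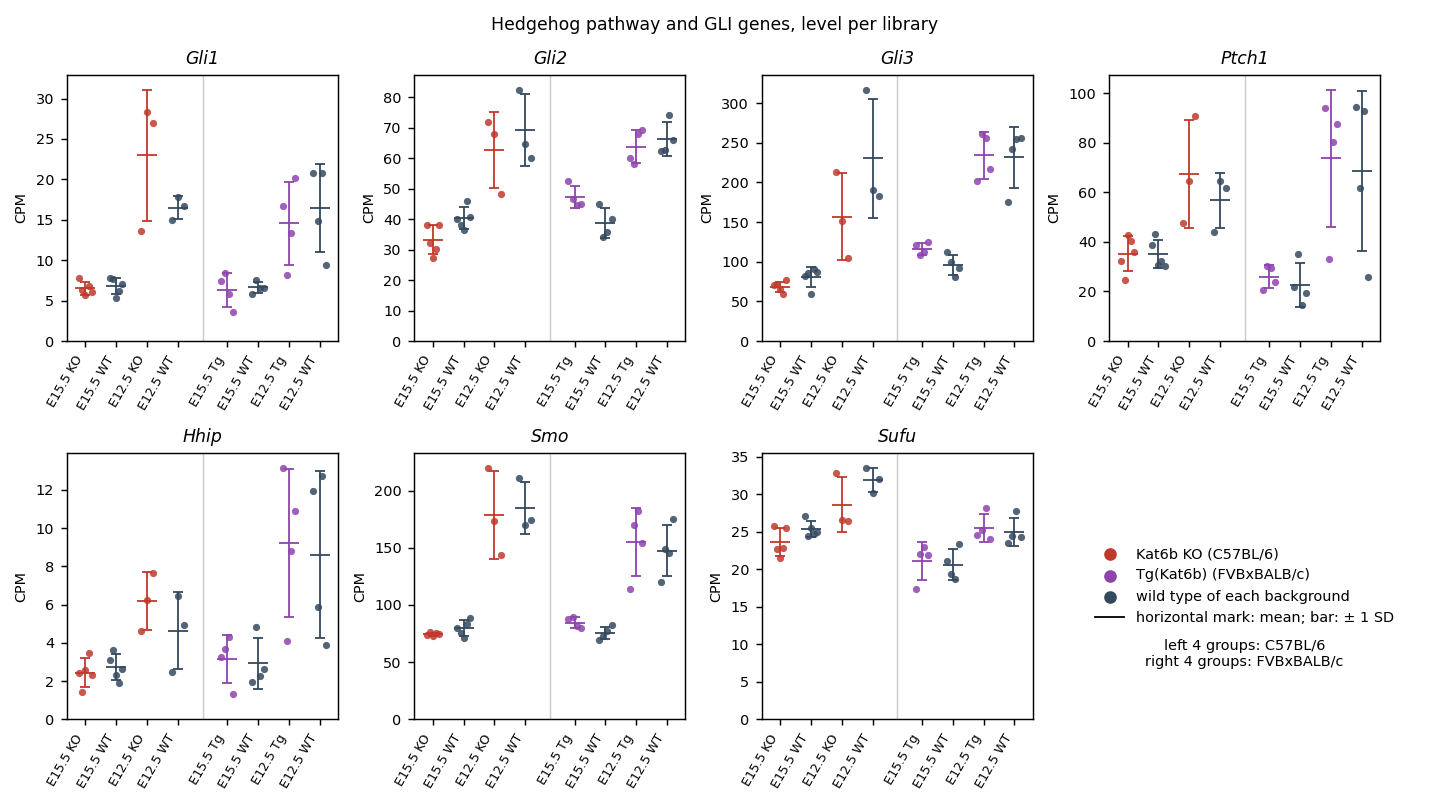
CPM of the 7 genes in each of the 32 libraries (points), with the group mean and 1 SD. In all panels the E15.5 groups lie below the E12.5 groups of their background on average, and within an age the genotypes overlap for all 7 genes.

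Ptch1 had 38.8, 43.2, 30.8, 32.3 and 30.3 CPM at E15.5, against 44.2, 64.5 and 61.8 CPM at E12.5, in C57BL/6 wild type. The FVBxBALB/c wild type had 21.8, 35.2, 14.4 and 19.6 CPM at E15.5, against 94.3, 61.6, 92.9 and 25.7 CPM at E12.5. Ptch1, the receptor gene, was thus lower in every C57BL/6 library at E15.5. In FVBxBALB/c the E12.5 replicate 4 lay within the E15.5 range, below only E15.5 replicate 2. The log2 fold change was -0.67 (standard error 0.207, adjusted p = 0.0118) in C57BL/6 and -1.55 (standard error 0.383, adjusted p = 0.00300) in FVBxBALB/c wild type. The C57BL/6 call was lost without wild-type replicate 3 at E12.5 (-0.56, adjusted p = 0.0669). In C57BL/6 wild type Hhip stood at 3.09, 3.64, 2.32, 1.91 and 2.65 CPM at E15.5, against 2.47, 6.45 and 4.94 CPM at E12.5. It stood at 1.94, 4.83, 2.25 and 2.65 CPM at E15.5, against 11.9, 5.88, 12.7 and 3.91 CPM at E12.5, in FVBxBALB/c wild type. Hhip, whose protein sequesters the ligand, overlapped between ages in both backgrounds. In C57BL/6 this was through E12.5 replicate 1, low in it. In FVBxBALB/c it was through E12.5 replicate 4 (3.91 CPM), which lay below only the high E15.5 replicate 2 (4.83 CPM). The Hhip log2 fold change was -0.74 (standard error 0.299, adjusted p = 0.0440) and -1.49 (standard error 0.444, adjusted p = 0.0104). In C57BL/6 the call was lost in 6 of 8 leave-one-out fits, among them -0.39 (adjusted p = 0.336) without wild-type replicate 3 at E12.5, and with a replicate block (-0.63, adjusted p = 0.145). The other libraries that each ended it were wild-type replicate 4 at E12.5 and replicates 1, 3, 4 and 5 at E15.5 (adjusted p = 0.0504 to 0.103).

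The Smo level of C57BL/6 wild type was 79.7, 75.6, 70.9, 83.3 and 88.6 CPM at E15.5, against 211, 169.9 and 174 CPM at E12.5. That of FVBxBALB/c wild type was 69.6, 72.5, 77.6 and 82.4 CPM at E15.5, against 120.2, 149, 145 and 175 CPM at E12.5. Smo, the transducer that PTCH1 restrains, had no overlap between ages in either background. It was 2.28-fold lower at E15.5 in C57BL/6, a log2 value of -1.19 (standard error 0.107, adjusted p = 1.50e-07), and 1.92-fold lower in FVBxBALB/c, a log2 value of -0.94 (standard error 0.128, adjusted p = 1.35e-05). Sufu had 27.1, 24.5, 25.5, 24.7 and 25.03 CPM at E15.5, against 33.5, 30.2 and 31.97 CPM at E12.5, in C57BL/6 wild type. The FVBxBALB/c wild type had 21.1, 19.4, 18.7 and 23.3 CPM at E15.5, against 23.5, 24.4, 27.7 and 24.3 CPM at E12.5. Sufu, the inhibitor of GLI proteins, was also separate between ages in both, by a smaller step. The log2 fold change was -0.31 (standard error 0.0824, adjusted p = 0.00447) in C57BL/6 and -0.26 (standard error 0.106, adjusted p = 0.0521) in FVBxBALB/c. In FVBxBALB/c it passed with the other normalization (0.0447) and by DESeq2's Wald test (0.0279), and without FVBxBALB/c wild-type replicate 4 at E15.5 (0.0290). In labelled knockout Sufu was at -0.23 (standard error 0.0826, adjusted p = 0.0266), a call lost without E12.5 replicate 1 (-0.13, adjusted p = 0.225), without E15.5 replicate 4 (adjusted p = 0.0507) and without E15.5 replicates 3 and 4 (adjusted p = 0.113).

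In C57BL/6 wild type Gli2 stood at 39.99, 38.2, 36.4, 46.1 and 40.6 CPM at E15.5, against 82.5, 64.7 and 60.1 CPM at E12.5. It stood at 45.01, 34.1, 35.7 and 40.1 CPM at E15.5, against 62.3, 62.5, 74.2 and 66.1 CPM at E12.5, in FVBxBALB/c wild type. Gli2, the main activator among the GLI factors, was separate between ages in both backgrounds, with log2 fold changes of -0.76 (standard error 0.132, adjusted p = 0.000125) and -0.75 (standard error 0.0985, adjusted p = 9.35e-06) in that order. The Gli3 level of C57BL/6 wild type was 82.5, 85.5, 59.1, 90.7 and 86.6 CPM at E15.5, against 317, 191 and 183 CPM at E12.5. That of FVBxBALB/c wild type was 112, 99.4, 81.2 and 91.5 CPM at E15.5, against 175, 242, 255 and 255 CPM at E12.5. Gli3, the main repressor, was likewise separate. It was 2.80-fold lower at E15.5 in C57BL/6, a log2 value of -1.48 (standard error 0.206, adjusted p = 2.26e-05), and 2.38-fold lower in FVBxBALB/c, a log2 value of -1.25 (standard error 0.129, adjusted p = 7.94e-07). Gli1 had 7.86, 7.62, 5.38, 6.22 and 7.07 CPM at E15.5, against 14.97, 17.8 and 16.7 CPM at E12.5, in C57BL/6 wild type. The FVBxBALB/c wild type had 5.81, 7.56, 6.62 and 6.59 CPM at E15.5, against 20.7, 14.9, 20.8 and 9.47 CPM at E12.5. Gli1, an activator that is itself a target of the pathway, was separate in both. Its log2 fold change was -1.25 (standard error 0.193, adjusted p = 3.86e-05) in C57BL/6 and -1.27 (standard error 0.296, adjusted p = 0.00192) in FVBxBALB/c.

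The same comparison in the other genotypes gave the following log2 fold changes, E15.5 over E12.5. In labelled knockout they were -0.90 for Ptch1, -1.29 for Hhip, -1.22 for Smo, -0.87 for Gli2, -1.15 for Gli3 and -1.77 for Gli1. In Tg(Kat6b) they were -1.48 for Ptch1, -1.52 for Hhip, -0.85 for Smo, -0.25 for Sufu, -0.41 for Gli2, -0.99 for Gli3 and -1.17 for Gli1. Tg(Kat6b) Sufu had an adjusted p of 0.0589, or 0.0485 without Tg(Kat6b) replicate 3 at E15.5.

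**Figure D3:**
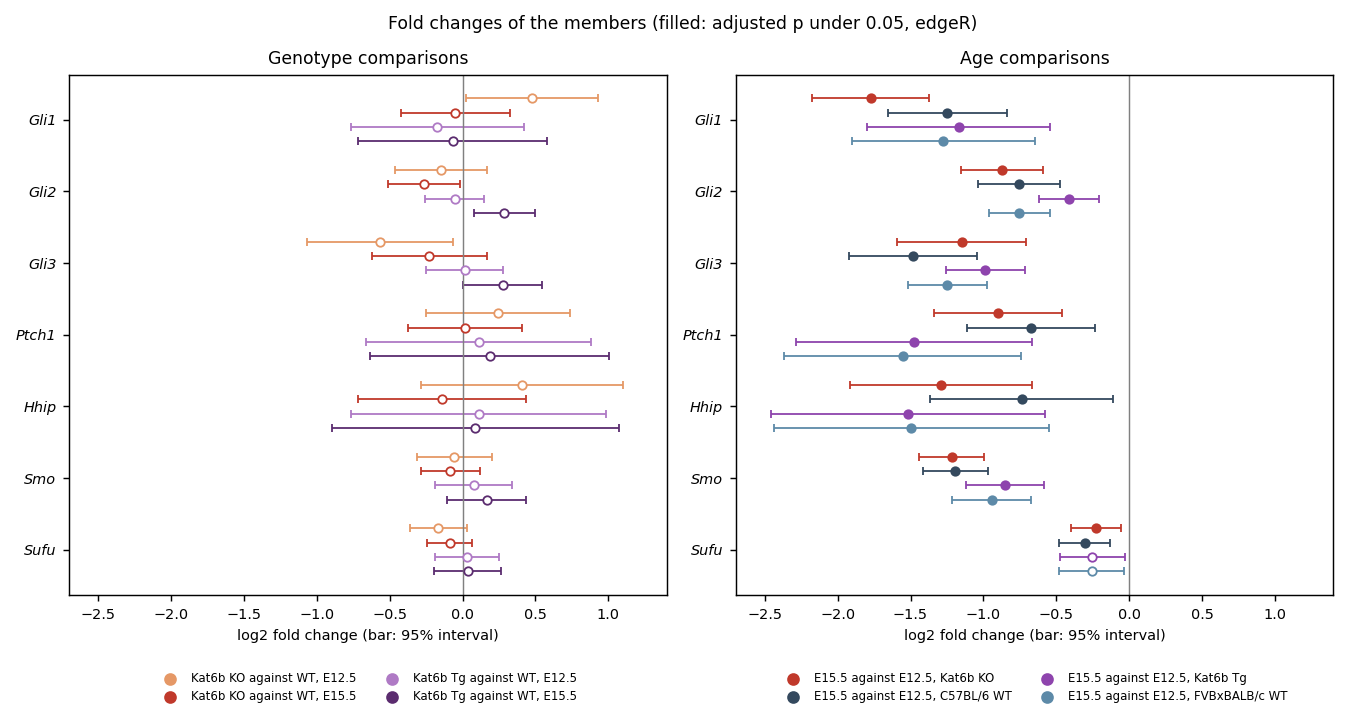
Log2 fold changes of the 7 genes with 95% intervals for the 4 genotype comparisons (left) and the 4 age comparisons (right); filled points passed an adjusted p of 0.05 over all genes. No genotype point is filled, and in the age comparisons all but Sufu in the 2 FVBxBALB/c genotypes are.

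Markers of other cells moved with age too. Summed CPM of 10 meningeal and mesenchymal markers was 20.5 to 97.1 at E15.5, against 404 to 1283 at E12.5, in C57BL/6 wild type, and 22.2 to 25.6 against 321 to 1822 in FVBxBALB/c wild type, and 9 of 10 fell in each. Of these markers Mgp was at 0 in 2 of 32 libraries and Lum and Twist1 in 1 each, and of the erythroid ones Hbb-bh1 in 2. Summed CPM of 8 erythroid markers was 112 to 197 against 2113 to 3949.6 in C57BL/6 and 130.01 to 237 against 2364 to 9647 in FVBxBALB/c, with 8 and 6 of 8 lower. Of 10 hem and choroid plexus markers 8 fell in each background (31.9 to 620.2 against 239.7 to 329 CPM, and 22.6 to 461 against 213 to 305 CPM). The 10 radial glia markers, which mark the progenitors of this tissue, summed to 2226 to 2419 against 2859.7 to 3793 CPM in C57BL/6 and 2722 to 2945 against 3569 to 4074 CPM in FVBxBALB/c; 6 of 10 fell in each, and 3 and 2 rose. The diencephalon, midbrain and hindbrain markers, of which En1, En2 and Pax2 were at 0 in 14, 3 and 5 of 32 libraries, summed to 71.9 to 326 against 353 to 423 CPM and 75.8 to 130.3 against 184 to 835 CPM. Other lists did not mainly fall: of 10 dorsal telencephalon markers 6 rose and 3 fell in each background (medians 0.56 and 0.83 in C57BL/6 and FVBxBALB/c). Of 12 ventral telencephalon markers 2 and 3 rose and 2 and 1 fell, of 8 endothelial markers 3 rose in each and 3 and 5 fell, and of 6 microglia markers 1 and 2 rose and 0 and 1 fell. The part of these cells in the age differences of the 7 genes was not tested, and fewer cells of a type and less RNA per cell cannot be told apart in bulk tissue.

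Other pathway genes, from lists by role, included some that rose. In C57BL/6 wild type 28.2% of all genes fell and 28.6% rose at E15.5, and in FVBxBALB/c wild type 25.1% fell and 25.1% rose, and the counts that follow are to be read against these shares. Among ligands and ligand-release genes, 3 of 8 fell and 2 rose at E15.5 in C57BL/6 wild type, and 5 of 7 fell and 2 rose in FVBxBALB/c wild type. Shh had 3.27, 6.05, 7.11, 3.56 and 3.36 CPM at E15.5, against 3.53, 13.2 and 15.4 CPM at E12.5, in C57BL/6, and 0.968, 8.70, 3.89 and 5.802 CPM against 28.96, 10.8, 24.1 and 6.995 CPM in FVBxBALB/c. The Shh libraries overlapped in both backgrounds, and its log2 fold change was -1.16 (adjusted p = 0.0425) and -1.80 (adjusted p = 0.0157). Scube2, which helps release lipid-bearing Hedgehog, fell by 1.91 and 2.25 on the log2 scale in C57BL/6 and FVBxBALB/c. Disp2, a relative of the release gene Disp1, rose by 1.71 and 0.87.

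Of the 5 receptor and coreceptor genes beside Ptch1, 4 fell in C57BL/6 and 5 in FVBxBALB/c wild type, and none rose. The ligand-binding coreceptor gene Gas1 was at -1.70 and -1.37 (log2 fold change, C57BL/6 and FVBxBALB/c), its partners Boc at -0.84 and -0.78 and Cdon at -0.68 and -0.49. The endocytic receptor gene Lrp2, known to bind SHH in the ventral forebrain, was at -1.28 and -2.08.

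Of the 23 regulators of SMO and GLI 6 (26.1%) fell and 10 (43.5%) rose in C57BL/6, and 5 (21.7%) fell and 6 (26.1%) rose in FVBxBALB/c, all but the share that rose in C57BL/6 near those of all genes. Evc and Evc2, whose products hold SMO at the base of the cilium, fell (-1.40 and -1.17 for Evc, -1.002 and -0.91 for Evc2). Prkacb, a catalytic subunit of protein kinase A, which phosphorylates GLI proteins, rose (0.89 and 0.81). Of 18 genes of ciliary transport 4 (22.2%) fell and 3 (16.7%) rose in C57BL/6, and 10 (55.6%) fell and 3 (16.7%) rose in FVBxBALB/c. The kinesin gene Kif3b rose (0.66 and 0.51) and Intu, a gene for cilium assembly, fell (-0.64 and -0.58).

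Among genes known elsewhere as Hedgehog targets, 4 of 11 (36.4%) fell and 1 rose in C57BL/6, and 5 of 10 (50%) fell and 2 rose in FVBxBALB/c. The cyclin genes Ccnd1 (-2.33 and -2.17) and Ccnd2 (-1.02 and -0.78) fell, and the survival gene Bcl2 rose (0.65 and 0.96). The ventral forebrain gene Nkx2-1 did not pass (-0.58, adjusted p = 0.482, and -1.04, adjusted p = 0.0667). Of 8 zinc finger genes related to GLI, 6 fell and 0 rose in each background, among them Zic5 (-1.21 and -1.27) and Glis2 (-0.64 and -0.70). The median log2 fold change over a list ran between -0.84 (receptors) and 0.20 (regulators) in C57BL/6, and between -1.27 and 0.09 for those lists in FVBxBALB/c.

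**Figure D4:**
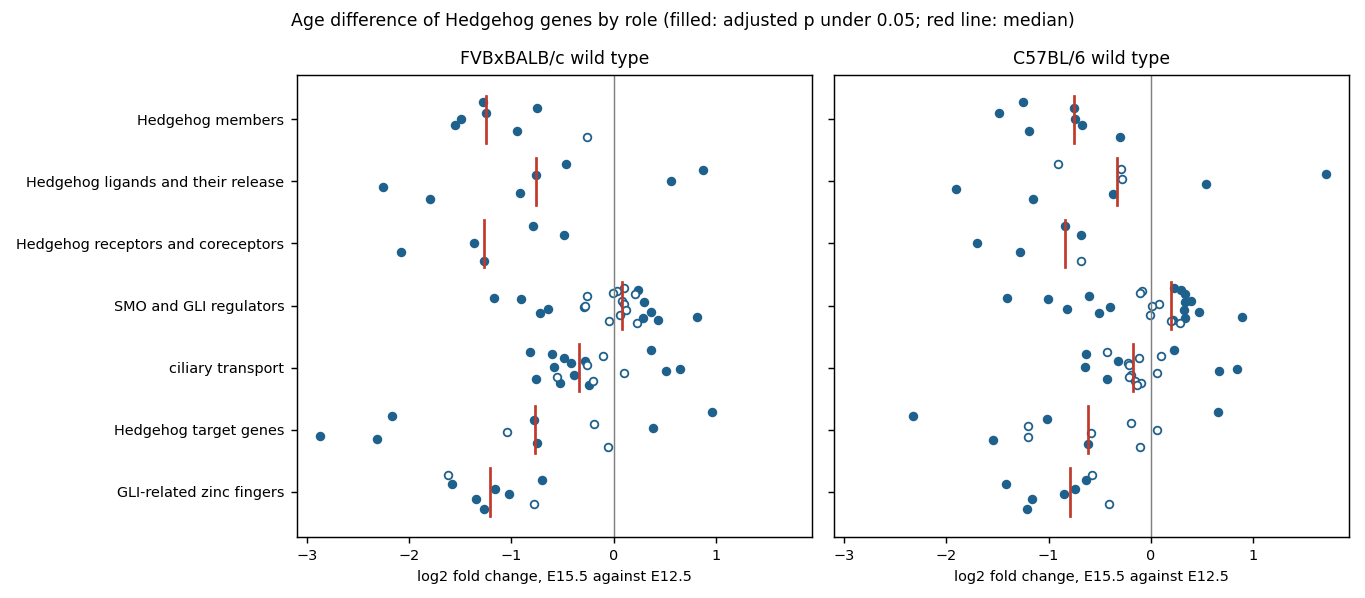
Log2 fold changes, E15.5 over E12.5, of the pathway genes by role in wild type of FVBxBALB/c (left) and C57BL/6 (right); each point is a gene, filled where it passed an adjusted p of 0.05, and the red line is the list's median. The receptor list has 5 and 4 filled points below 0 and none above, while the list of SMO and GLI regulators has filled points on both sides.

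The knockout comparison asks what loss of Kat6b does to these genes. At E12.5 none of the 7 passed. By edgeR 0 of 7 were called, where 0.0062% of 16118 genes were (1 gene, and 0 with a replicate or a litter block), and DESeq2's Wald test called 0 of 7. At an unadjusted p under 0.05 there were 2 of 7 (Gli1 and Gli3), against 5.22% of all genes. Gli1 had 13.6, 28.3 and 26.97 CPM in labelled knockout, against 14.97, 17.8 and 16.7 CPM in wild type. Labelled knockout replicates 3 and 4 lay above all 3 wild-type libraries and replicate 1 below them. The log2 fold change was 0.48 (standard error 0.213, adjusted p = 0.881) with a 95% interval of 0.03 to 0.93.

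Gli3 had 214, 152 and 105 CPM in labelled knockout, against 317, 191 and 183 CPM in wild type. Labelled knockout replicate 1 lay within the wild-type range and replicates 3 and 4 below it. Set against wild type of its own litter, each labelled knockout library was lower, replicate 1 at 214 against 317 CPM. Of the other genes only Sufu was lower in this way in each library, and the share of all genes was not computed. The Gli3 log2 fold change was -0.56 (standard error 0.235, adjusted p = 0.881) with a 95% interval of -1.06 to -0.06. Ptch1 had 47.5, 64.5 and 90.8 CPM, against 44.2, 64.5 and 61.8 CPM, and Hhip 4.63, 6.25 and 7.66 CPM, against 2.47, 6.45 and 4.94 CPM. Replicate 4 of the labelled knockout was the highest library for both, and the groups overlapped. The values were 0.24 (standard error 0.232, adjusted p = 0.926) for Ptch1 and 0.41 (standard error 0.328, adjusted p = 0.911) for Hhip. Smo (-0.06), Sufu (-0.17) and Gli2 (-0.15) had 95% intervals of -0.31 to 0.20, -0.36 to 0.03 and -0.46 to 0.16. In 0 of 7 genes were the groups without overlap, against 6.9% of all genes.

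The same libraries differed in regional markers, without any passing the test. All 10 dorsal telencephalon markers lay below 0 (median -0.33, summed CPM 1537 to 2093 in labelled knockout and 2149 to 2327 in wild type), and all 12 ventral telencephalon markers above 0 (median 0.20, 799 to 1312 and 422 to 1224 CPM), with 0 called in either by edgeR and 5 and 0 at an unadjusted p under 0.05. Meningeal markers summed to 316 to 2031 CPM in labelled knockout and 404 to 1283 CPM in wild type, and lay above 0 in 9 of 10. The ventral direction rested on wild-type replicate 1, with 422 CPM of ventral markers, while wild-type replicates 3 and 4 had 1224 and 927 CPM. Without it, in a fit chosen after seeing the data, 10 of 12 ventral markers lay below 0 (median -0.12), the dorsal median was -0.41 and the meningeal median 0.94, against 0.29 with it. Their part in the values of Gli1 and Gli3 was not tested. Of the 73 genes tested in the 6 pathway lists edgeR called 0, with 3 at an unadjusted p under 0.05. Coreceptor genes had a median of -0.37 with 4 of 5 below 0, and ligand genes a median of 0.20, where all genes tested had -0.01. Among those with the smallest p in their list were Cul3, a ubiquitin ligase scaffold (-0.18, adjusted p = 0.881), and Dync2h1, a motor of ciliary transport (-0.50, adjusted p = 0.881).

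At E15.5 the knockout comparison again called 0 of 7 by edgeR and 0 of 7 by DESeq2, where 0% of all genes were called by edgeR (0 genes, or 1 with a litter block). At an unadjusted p under 0.05 there was 1 of 7 (Gli2), against 2.83% of all genes. Gli2 had 37.9, 32.2, 27.3, 30.3 and 38.2 CPM in labelled knockout, against 39.99, 38.2, 36.4, 46.1 and 40.6 CPM in wild type. Labelled knockout replicates 2, 3 and 4 lay below all 5 wild-type libraries and replicates 1 and 5 within their range. Set against the wild-type embryo of its own litter, the labelled knockout embryo was lower in 5 of 5 litters for Gli2. It was lower in 4 of 5 for Gli3 and Sufu, in 3 of 5 for Gli1, Smo and Hhip, and in 2 of 5 for Ptch1. The share of all genes with such counts was not computed. The Gli2 log2 fold change was -0.26 (standard error 0.118, adjusted p = 1.00) with a 95% interval of -0.51 to -0.02, and -0.27 with a litter block (adjusted p = 1.00). Gli3 had 70.1, 71.6, 65.1, 59.4 and 76.5 CPM, against 82.5, 85.5, 59.1, 90.7 and 86.6 CPM, and wild-type replicate 3 was its lowest library of both groups. Its value was -0.23 (standard error 0.185, adjusted p = 1.00).

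For the other 5 genes the log2 fold changes at E15.5 lay between -0.14 (Hhip, 95% interval -0.72 to 0.43) and 0.02 (Ptch1, -0.38 to 0.41). Gli1 had 7.81, 6.26, 5.66, 6.82 and 6.05 CPM, against 7.86, 7.62, 5.38, 6.22 and 7.07 CPM (-0.05, 95% interval -0.43 to 0.32). Smo had 73.6, 75.97, 72.8, 75.8 and 74.5 CPM, against 79.7, 75.6, 70.9, 83.3 and 88.6 CPM (-0.08, -0.29 to 0.12), and Sufu 25.8, 22.7, 21.5, 22.9 and 25.5 CPM, against 27.1, 24.5, 25.5, 24.7 and 25.03 CPM (-0.09, -0.24 to 0.07). The groups overlapped for all 7, against 0.726% of all genes without overlap. Ptch1 was at -0.18 without labelled knockout replicates 3 and 4, which held its highest labelled knockout values (42.7 and 40.4 CPM) beside the meningeal excess given above. Labelled knockout replicate 3 had the lowest scaling factor of all libraries (0.816) and the largest share of counts without a gene name (2.00%). By plain library totals its Ptch1 was 34.8 CPM, against 41.5 CPM in labelled knockout replicate 4 and 34.97 CPM in replicate 5, so its rank rests on the scaling. Dorsal telencephalon markers lay below 0 in 10 of 10 (median -0.17) and meningeal and hem markers above 0 in 10 of 10 each (0.69 and 0.46). Ventral telencephalon markers lay below 0 in 11 of 12 (median -0.17) and diencephalon, midbrain and hindbrain markers above 0 in 7 of 9 (0.32), none of these lists held a called gene, and their part was not tested. Of the 73 genes tested in the 6 pathway lists edgeR called 0, with 3 at an unadjusted p under 0.05. Efcab7, part of the SMO-tethering complex of Evc, was at 0.41 (adjusted p = 1.00) and Boc at -0.29 (adjusted p = 1.00).

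Whether the effect differed between ages was tested by an interaction. It called 0 of 7 genes (0% of all genes by edgeR, 0 of 7 by DESeq2), with 0 of 7 at an unadjusted p under 0.05 (2.72% of all genes). For Gli1 the effect at E15.5 minus that at E12.5 was -0.53 (SE 0.277) on the log2 scale, with a 95% interval of -1.11 to 0.06, and for Gli3 it was 0.34 (SE 0.298) with an interval of -0.30 to 0.97.

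The transgenic comparison asks what a higher Kat6b level does. At E12.5 edgeR and DESeq2 each called 0 of 7, and edgeR called 0.0129% of 15556 genes. At an unadjusted p under 0.05 there were 0 of 7, against 6.68% of all genes. The pathway's response genes spread widely within both groups. Ptch1 had 93.9, 32.97, 80.4 and 87.7 CPM in Tg(Kat6b), against 94.3, 61.6, 92.9 and 25.7 CPM in wild type, and Hhip 13.1, 4.09, 8.80 and 10.9 CPM, against 11.9, 5.88, 12.7 and 3.91 CPM. Gli1 had 16.7, 8.11, 13.3 and 20.1 CPM, against 20.7, 14.9, 20.8 and 9.47 CPM. Tg(Kat6b) replicate 2 and wild-type replicate 4 were the lowest of their group for all 3 genes. The log2 fold changes were 0.11 (SE 0.365) for Ptch1, 0.11 (SE 0.413) for Hhip and -0.17 (SE 0.281) for Gli1, with 95% intervals of -0.66 to 0.88, -0.76 to 0.99 and -0.77 to 0.42.

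The more evenly expressed genes were closer. Smo had 114, 170.1, 182 and 154 CPM in Tg(Kat6b), against 120.2, 149, 145 and 175 CPM (0.08, 95% interval -0.19 to 0.34), and Sufu 24.6, 25.2, 28.2 and 24.01 CPM, against 23.5, 24.4, 27.7 and 24.3 CPM (0.03, -0.19 to 0.25). Gli2 had 60.04, 58.1, 67.8 and 69.1 CPM, against 62.3, 62.5, 74.2 and 66.1 CPM (-0.05, -0.26 to 0.15), and Gli3 202, 262, 256 and 216 CPM, against 175, 242, 255 and 255 CPM (0.02, -0.25 to 0.28). All 7 overlapped between genotypes, where 2.83% of all genes did not. Of the 71 genes tested in the 6 pathway lists edgeR called 0, with 4 at an unadjusted p under 0.05. Tulp3, a gene of ciliary trafficking, had the smallest p (-0.24, adjusted p = 0.724).

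At E15.5 edgeR and DESeq2 again called 0 of 7 (edgeR called 0.0129% of genes), and 2 of 7 had an unadjusted p under 0.05, Gli2 and Gli3, against 2.22% of all genes. Gli2 had 52.4, 46.5, 44.6 and 45.04 CPM in Tg(Kat6b), against 45.01, 34.1, 35.7 and 40.1 CPM in wild type. Tg(Kat6b) replicates 1, 2 and 4 lay above all 4 wild-type libraries, and replicate 3 just below wild-type replicate 1. The log2 fold change was 0.29 (standard error 0.0994, adjusted p = 1.00) with a 95% interval of 0.08 to 0.50. Gli3 had 121, 108, 112 and 125 CPM, against 112, 99.4, 81.2 and 91.5 CPM, with 2 Tg(Kat6b) libraries above the highest wild-type library and 2 within its range. Its log2 fold change was 0.28 (standard error 0.128, adjusted p = 1.00) with a 95% interval of 0.01 to 0.55. All 7 overlapped, where 2.55% of all genes did not.

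Ptch1 had 20.5, 30.4, 29.3 and 23.96 CPM in Tg(Kat6b), against 21.8, 35.2, 14.4 and 19.6 CPM in wild type, for a log2 fold change of 0.19 (95% interval -0.63 to 1.01). Hhip had 3.28, 3.70, 4.28 and 1.34 CPM, against 1.94, 4.83, 2.25 and 2.65 CPM (0.09, -0.90 to 1.07). Gli1 had 7.43, 8.37, 5.82 and 3.64 CPM, against 5.81, 7.56, 6.62 and 6.59 CPM (-0.07, -0.72 to 0.58). Tg(Kat6b) replicate 4 was the lowest of its group for Hhip and Gli1, and was also the library with 5.94 CPM of Nkx2-1, where the other 7 libraries of this age and background had 28.7 to 80.8 CPM. Smo was at 0.16 (-0.11 to 0.43) and Sufu at 0.03 (-0.19 to 0.26). Dorsal telencephalon markers lay above 0 in 10 of 10 (median 0.24, summed CPM 3951 to 5325 in Tg(Kat6b) and 3668 to 4641 in wild type) beside Gli2 and Gli3, and their part was not tested. Of the 71 genes tested in the 6 pathway lists edgeR called 0, with 0 at an unadjusted p under 0.05. For Gli2 the difference of the transgene's effects, E15.5 minus E12.5, was 0.34 (SE 0.138), with a 95% interval of 0.05 to 0.63 and an adjusted p of 1.00 in edgeR. In all, 0 of 7 interactions were called (0% of all genes, and 0 of 7 by DESeq2) and 1 of 7 had an unadjusted p under 0.05 (4.04% of all genes).

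In the knockout comparison at E15.5 Gli2 thus lay at -0.26 and Gli3 at -0.23, and in the transgenic comparison at E15.5 at 0.29 and 0.28. These comparisons share no library, but none of the 4 values passed, and the difference between them was not tested. Of all 7 genes, 6 lay below 0 in that knockout comparison and 6 above 0 in that transgenic comparison. The median of all genes tested was 0.0077 and 0.0028, and the share of all genes on each side is not given here. As given above, every dorsal telencephalon marker also lay below 0 in that knockout comparison and above 0 in that transgenic comparison. Their part was not tested. The 4 values of Gli2 and Gli3 kept their sign with any 1 library of the compared groups left out, but were not alone in this. In labelled knockout so did Gli1, Gli3, Hhip and Sufu at E12.5, and Gli1, Smo, Hhip and Sufu at E15.5. In Tg(Kat6b) so did Ptch1 and Smo at E15.5. Of the other genotype values many changed sign in that way, those of Gli2 at E12.5 in both comparisons and of Gli3 at E12.5 in Tg(Kat6b) among them, and no direction is given to them.

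Between wild types, FVBxBALB/c against C57BL/6, with the batch confounded, Sufu alone of the 7 was called at each age, lower in FVBxBALB/c. At E15.5 Sufu had 21.1, 19.4, 18.7 and 23.3 CPM in FVBxBALB/c, against 27.1, 24.5, 25.5, 24.7 and 25.03 CPM in C57BL/6, and at E12.5 23.5, 24.4, 27.7 and 24.3 CPM, against 33.5, 30.2 and 31.97 CPM. The groups did not overlap at either age, and the log2 fold change was -0.28 (standard error 0.0866, adjusted p = 0.0158) and -0.35 (standard error 0.0943, adjusted p = 0.0129). That is 1 of 7 called lower, where 11.3% and 7.19% of 16399 genes were, and 1 of 7 separate downwards, where 13.4% and 8.06% were. The E15.5 call was lost without FVBxBALB/c replicate 2 (adjusted p = 0.0702) or 3 (0.0589). The E12.5 call was lost without C57BL/6 replicate 4 (0.0684). At E12.5 Hhip had a log2 fold change of 0.88 (standard error 0.414, adjusted p = 0.171) and Smo of -0.33 (standard error 0.128, adjusted p = 0.0889); without FVBxBALB/c replicate 4 both passed (1.14, adjusted p = 0.0452, and -0.42, adjusted p = 0.0250). Ptch1, Gli1, Gli2 and Gli3 were at 0.27, -0.01, -0.06 and 0.01 at E12.5. At E15.5 Ptch1 was at -0.59 (adjusted p = 0.180), with 3 of 4 FVBxBALB/c libraries below all C57BL/6 ones, and Gli3 at 0.26 (adjusted p = 0.260), with 3 of 4 above all. Gli1, Gli2, Smo and Hhip were at -0.01, -0.04, -0.06 and 0.15 at E15.5.

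Ranked by mean CPM over the 8 groups, the 4 E12.5 groups stood above the 4 E15.5 groups for every gene but Sufu. Between neighbours in that order the libraries overlapped, except at the step between ages for Gli1, Ptch1 and Smo. That step sets only the lowest E12.5 group against the highest E15.5 group, and over all groups only Smo was separate. FVBxBALB/c wild-type replicate 4 (25.7 CPM) and Tg(Kat6b) replicate 2 (32.97 CPM) at E12.5 lay within the E15.5 range of Ptch1, 14.4 to 43.2 CPM. Gli1 had 8.11 CPM in Tg(Kat6b) replicate 2 at E12.5 and 8.37 CPM in Tg(Kat6b) replicate 2 at E15.5. For Gli1 the lowest E12.5 group was Tg(Kat6b) (14.6 ± 5.12 CPM, n = 4) and the highest E15.5 group C57BL/6 wild type (6.83 ± 1.03 CPM, n = 5). For Sufu C57BL/6 wild type at E15.5 (25.4 ± 1.04 CPM, n = 5) stood between Tg(Kat6b) (25.5 ± 1.85 CPM) and FVBxBALB/c wild type at E12.5 (24.98 ± 1.88 CPM, n = 4 each).

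Within E12.5 Hhip and Ptch1 varied from library to library with Shh. Over the 14 E12.5 libraries Shh ran from 3.53 CPM in C57BL/6 wild-type replicate 1 to 29.5 CPM in Tg(Kat6b) replicate 1. Hhip rose with it on log2(CPM + 0.5) values (Pearson's r = 0.94, Spearman's rho = 0.90; permutation p = 1e-05 and 7.00e-05, adjusted 0.000140 and 0.000490 over the 14 relations computed, where 1e-05 is the smallest p that 100000 permutations can give). So did Ptch1 (Pearson's r = 0.85, Spearman's rho = 0.91; permutation p = 0.000180 and 1e-05, adjusted 0.00126 and 0.000140). Without the 2 libraries farthest from the median of Shh, r was 0.91 for Hhip and 0.92 for Ptch1. Within a background, which is also a batch, r was 0.93 (n = 6) and 0.98 (n = 8) for Hhip in C57BL/6 and FVBxBALB/c, and 0.94 and 0.92 for Ptch1. Their exact permutation p-values, adjusted over 28 relations, were 0.0467, 0.00799, 0.0467 and 0.00556 in that order. By Spearman's rho both passed in FVBxBALB/c (0.93 for Hhip and 0.95 for Ptch1, exact permutation, adjusted p = 0.0312 each) and neither in C57BL/6 (0.77 and 0.77, adjusted p = 0.230 each), where r without the 2 extreme libraries was 0.61 for Hhip and 0.95 for Ptch1 (n = 4). The 6 C57BL/6 embryos came from 2 litters, and the permutations treat them as separate. Replicates 1 of both genotypes, which share a litter, held the lowest Shh, 6.79 CPM in labelled knockout and 3.53 CPM in wild type, as well as the lowest Ptch1 and Hhip and the highest Smo of the 6. Litter and Shh cannot be told apart over those 6. Replicates 1 were also the 2 C57BL/6 libraries farthest from the median of Shh, so that r without them is of the other litter alone. There it was 0.95 for Ptch1, 0.61 for Hhip and -0.93 for Smo (n = 4), and was not tested.

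Gli1 missed the threshold over all 14 (Pearson's r = 0.61, Spearman's rho = 0.60; permutation p = 0.0197 and 0.0258, adjusted 0.0553 and 0.0722), and within backgrounds had r = 0.73 in C57BL/6 and 0.91 in FVBxBALB/c (exact permutation, adjusted p = 0.175 and 0.0259, or 0.143 in FVBxBALB/c by Spearman's rho). Smo ran the other way, lower where Shh was higher (Pearson's r = -0.82, Spearman's rho = -0.79; permutation p = 0.000420 and 0.00121, adjusted 0.00196 and 0.00565). Its r was -0.71 without the 2 extreme libraries, -0.91 within C57BL/6 and -0.73 within FVBxBALB/c (exact permutation, adjusted p = 0.0519 and 0.109), so that neither background passed alone. Gli3 did not pass (Pearson's r = -0.55, Spearman's rho = -0.54; permutation p = 0.0389 and 0.0485, adjusted 0.0907 and 0.113), and was at r = -0.94 and -0.72 within backgrounds (exact permutation, adjusted p = 0.05 and 0.109). Gli2 (r = -0.44) and Sufu (r = -0.52) did not pass either, with adjusted permutation p-values of 0.131 and 0.108.

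**Figure D5:**
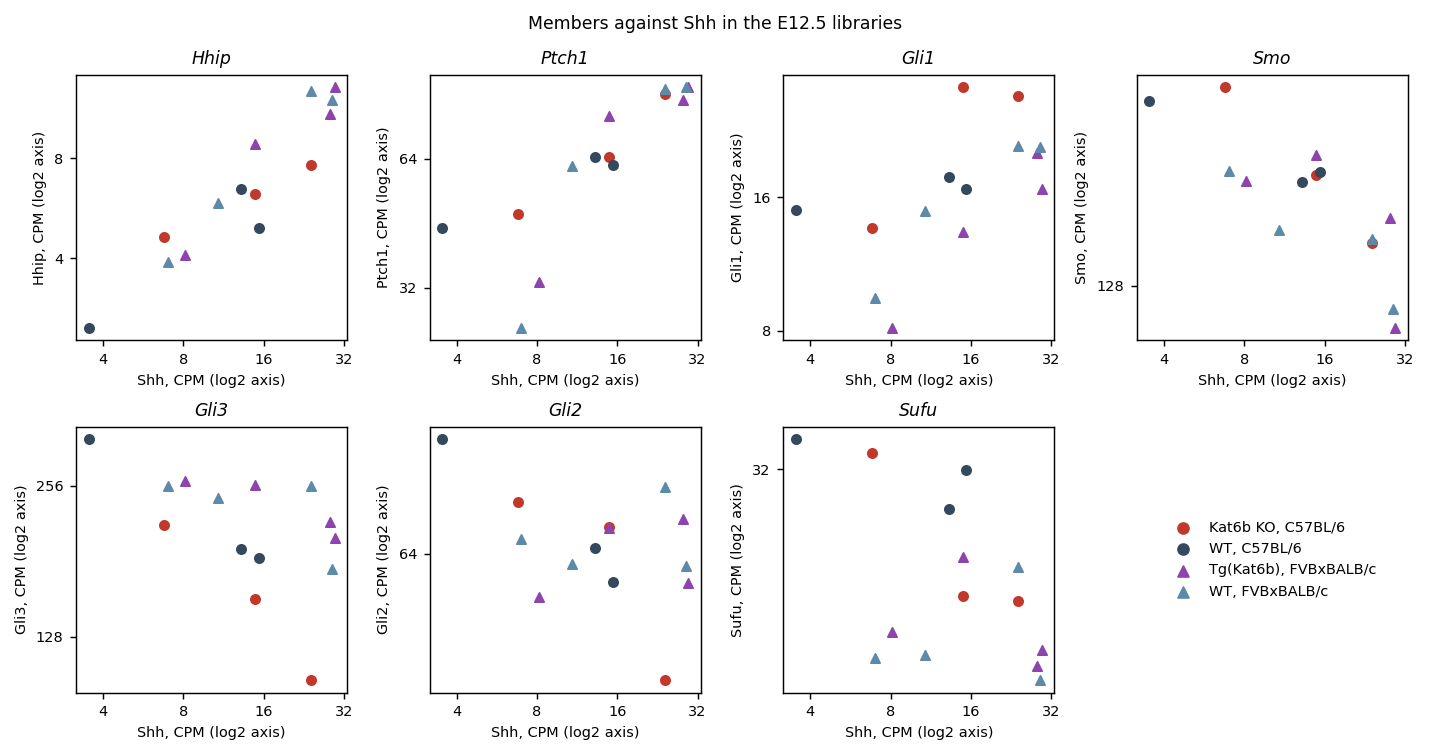
CPM of each of the 7 genes (vertical, log2 axis) against CPM of Shh (horizontal, log2 axis) in the 14 E12.5 libraries, marked by group. Hhip and Ptch1 rise along Shh in both backgrounds, Smo declines, and the other 4 genes did not pass over the 14 libraries.

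Summed levels of 9 marker lists were set against Shh in the same 14 libraries, with permutation p adjusted over the lists. Ventral telencephalon markers rose with Shh (r = 0.82, rho = 0.68, adjusted 0.00225 and 0.0289), as did diencephalon, midbrain and hindbrain markers (r = 0.68, rho = 0.76, adjusted 0.0211 each). Hem and choroid plexus markers were lower where Shh was higher (r = -0.66, rho = -0.71, adjusted 0.0211 and 0.0267). Dorsal telencephalon (r = -0.61, adjusted 0.0380) and endothelial markers (r = -0.68, adjusted 0.0211) passed by Pearson's r and not by Spearman's rho (adjusted 0.0957 and 0.0521). Without the 2 extreme libraries these r were 0.66, 0.82, -0.59, -0.71 and -0.45 in the order given. Within a background no list passed (exact permutation, smallest adjusted p = 0.0759 over 18 relations). The ventral r was 0.90 in C57BL/6 and 0.75 in FVBxBALB/c, or 0.49 (n = 4) and 0.06 (n = 6) without the 2 extreme libraries. For the diencephalon, midbrain and hindbrain list it was 0.48 and 0.85, or 0.62 and 0.56 without them. For the dorsal list it was -0.50 and -0.86, or -0.64 and -0.84. How much tissue from outside the dorsal wall each library held, and its part in the relations of Hhip, Ptch1 and Smo with Shh, was not tested. Over the 18 E15.5 libraries Hhip alone passed with Shh (Pearson's r = 0.66, Spearman's rho = 0.61; permutation p = 0.00282 and 0.00905, adjusted 0.00987 and 0.0317), with r = 0.55 without the 2 extreme libraries and 0.52 and 0.80 within C57BL/6 and FVBxBALB/c, where neither passed (permutation, exact in FVBxBALB/c, adjusted p = 0.196 and 0.0519).

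Likeness to other genes was taken over all 32 libraries as the root mean square difference of mean-centred log2 CPM, among 15447 genes tested in both backgrounds. For 1 gene a smaller value is a closer pattern. Its size also depends on the gene's own spread, so that values of different genes do not rank their matches. The SD of these log2 values was 0.563 for Smo, 0.735 for Gli3, 0.427 for Gli2 and 0.215 for Sufu. It was 0.772 for Gli1, 0.747 for Ptch1 and 0.883 for Hhip. For Smo the nearest were Mcm6 (0.110), Limd1 (0.123) and Aurka (0.128), for Gli3 Hk2 (0.154), Top2a (0.176) and Dtl (0.180), and for Gli2 Ctnna1 (0.128), Numb (0.140) and Racgap1 (0.140). For Sufu they were Slc35e1 (0.107), Aldh18a1 (0.115) and Scd2 (0.115). For the response genes the distances were larger: Nuak2 (0.308), Reep4 (0.309) and Dll3 (0.313) for Gli1, Zfp618 (0.296), Crb1 (0.297) and Hipk2 (0.327) for Ptch1 and Six3os1 (0.354), Gm10421 (0.382) and Peg10 (0.405) for Hhip. Among all 15447 genes Ptch1 ranked 7 and Gli1 ranked 12 in likeness to Hhip, and Gli1 ranked 40 and Hhip 76 in likeness to Ptch1. In likeness to Gli1, Ptch1 ranked 97 and Hhip 402, behind Smo at 321. The libraries share the step between ages, which any gene that is lower at E15.5 follows.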

How the data were processed

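Raw counts per gene were used as deposited by the authors, unnormalized, in 32 tables that also hold a gene length (Length column). Per the submitters' processing notes they were made with bcl2fastq and featureCounts on mm10. The aligner is not given in the sources used here, nor are versions or a strand setting. Rows with no gene name (848 of 27179, 0.305 to 2.00% of a library's counts) were left out. Libraries held 10383066 to 49508669 counts.

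Groups followed the labels. Comparisons were fitted in R 4.3.3 with edgeR 4.0.16 (trimmed mean scaling, filterByExpr with a minimum count of 10 and a minimum total of 15, robust quasi-likelihood F test), 1 fit per background (16118 and 15556 genes, 12 residual degrees of freedom) and 1 of all 32 libraries between backgrounds (16399 genes), with Benjamini-Hochberg adjustment over all genes and a threshold of 0.05. The scripts were tested on simulated data. Alternatives were DESeq2 1.42.0, its size factors, no filter, other sets of libraries, blocks and leaving out each replicate. Correlations used SciPy 1.17.1 with 100000 permutations, exact below 10 libraries. RPKM divides CPM by the deposited gene length. Same-numbered C57BL/6 labelled knockout and wild-type embryos share a litter per the labels, and the correlation of their deviations was -0.361 to 0.392 at E12.5 and -0.112 to 0.389 at E15.5.

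The 7 genes and all lists were chosen with earlier results of these data known. The text names the 7 genes, up to 3 genes per pathway list with the smallest p in a genotype or wild-type age comparison, Shh, Cdon, Boc, Gas1 and Nkx2-1, and the 3 genes nearest to each of the 7. Some genes of the lists are not reported here by name. Promoter windows matched 6 of 7 genes by symbol.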

Additional observations from a re-analysis of the deposited data

Results flagged for a closer look

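Of 42 sets of 4 or 5 libraries (a gene in a group) examined with Dixon's criterion, 2 held a library set apart from its group, both for Gli3, where chance flags about 1 in 20. Gli3 had 59.1 CPM in C57BL/6 wild-type replicate 3 at E15.5, while the other 4 libraries of that group had 82.5 to 90.7 CPM. Gli3 had 174.8 CPM in FVBxBALB/c wild-type replicate 1 at E12.5, while the other 3 had 242 to 255 CPM.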

How the results depend on the processing

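Over all alternatives 1221 values of a gene in a comparison kept their direction and their side of the threshold, 19 lost a call, 10 gained one and 80 changed sign, the last all among values that were not called; 350 counts of calls moved by less than 1.5 times and 30 by more. No alternative called any of the 7 genes in a genotype comparison or an interaction. With 1 library left out, the log2 fold changes that crossed 0 were as follows. In labelled knockout against wild type they ran at E12.5 over -0.0299 to 0.453 for Ptch1, -0.217 to 0.0768 for Smo and -0.242 to 0.00581 for Gli2, and at E15.5 over -0.0727 to 0.112 for Ptch1; the interaction ran over -0.436 to 0.0469 for Ptch1 and -0.161 to 0.133 for Smo. In Tg(Kat6b) against wild type they ran at E12.5 over -0.165 to 0.347 for Ptch1, -0.135 to 0.372 for Hhip, -0.0180 to 0.196 for Smo, -0.0272 to 0.0845 for Sufu, -0.0980 to 0.00413 for Gli2, -0.0943 to 0.0784 for Gli3 and -0.369 to 0.0196 for Gli1, at E15.5 over -0.0890 to 0.477 for Hhip, -0.0179 to 0.106 for Sufu and -0.243 to 0.109 for Gli1, and in the interaction over -0.170 to 0.383 for Ptch1, -0.284 to 0.366 for Hhip, -0.0316 to 0.173 for Smo, -0.0502 to 0.0809 for Sufu and -0.0945 to 0.301 for Gli1. In FVBxBALB/c against C57BL/6 they ran at E12.5 over -0.145 to 0.0831 for Gli2, -0.126 to 0.307 for Gli3 and -0.143 to 0.193 for Gli1, and at E15.5 over -0.237 to 0.294 for Hhip, -0.120 to 0.0237 for Gli2 and -0.0891 to 0.0437 for Gli1. Without both C57BL/6 libraries 5 at E15.5, Ptch1 in the E15.5 labelled knockout was at -0.0338 and the Smo interaction at 0.0231; without labelled knockout 3 and 4 Ptch1 was at -0.178. The cause of these shifts was not tested.

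Counts over all genes in the small genotype comparisons moved as follows. Labelled knockout at E12.5 gave 1 gene, or 3 by DESeq2's Wald test, 0 in a fit of only the groups compared, 0 with a replicate block, 0 with a litter block and 0 to 2 with 1 library left out. At E15.5 it gave 0, or 7 by DESeq2, 2 in the fit of only those groups, 1 in a fit of all 32 libraries and 1 with a litter block. Tg(Kat6b) gave 2 at E12.5, or 4 by DESeq2, and 2 at E15.5, or 7 by DESeq2, 4 in the fit of only those groups and 4 in the fit of all 32. Each interaction gave 0, or 1 by DESeq2. FVBxBALB/c against C57BL/6 at E12.5 gave 2095 genes, or 203 in a fit of only the 2 groups and 859 to 3325 with 1 library left out (859 without C57BL/6 replicate 4, 1222 without replicate 3, 1385 without FVBxBALB/c replicate 3 and 3325 without replicate 4). Of the 7 it called 1, or 0 in the fit of only the 2 groups (Sufu, adjusted p = 0.172) and 0 to 3 with 1 library left out; at E15.5 it called 1, or 0 to 1. The fit of only the 2 groups has fewer residual degrees of freedom.

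Of the age calls, Hhip in C57BL/6 wild type was also lost in the fit of all 32 libraries (adjusted p = 0.109), without both libraries 5 (0.0876) and in the fit of only the 2 groups (0.0596). Ptch1 there was lost in the fit of all 32 (0.0792). Sufu in FVBxBALB/c wild type and Tg(Kat6b) passed in the fit of all 32 (0.0179 and 0.0192), and in Tg(Kat6b) by DESeq2 (0.0366) and with its size factors (0.0491). With a replicate block the other calls on the 7 genes stood as without it. In FVBxBALB/c, where no shared litter is labelled, same-numbered libraries correlated at -0.116 to 0.604 at E12.5, with 2 of 4 best with their own number, and at -0.141 to 0.0847 at E15.5, with 0 of 4. By plain library totals the mean Smo level in labelled knockout at E15.5 was 72.7 CPM, against 74.5 CPM as reported. Hhip, at 1.34 to 13.1 CPM, rests on the fewest counts. The C57BL/6 comparison at E12.5 has 3 libraries a group, and bulk tissue cannot show which cells carry a transcript.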
